A study of Mus musculus with 12 samples.

Results

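The Ms4a family encodes small proteins that cross the cell membrane several times, with both ends inside the cell. Different members mark different blood cells: Ms4a1 encodes the B cell antigen CD20, Ms4a2 the signalling beta chain of the high-affinity IgE receptor of mast cells and basophils, and Ms4a3 a protein of granulocyte-monocyte precursors. Several others, among them Ms4a4c, Ms4a6b, Ms4a6c, Ms4a6d and Ms4a7, are known from monocytes and macrophages, and Ms4a4b from T cells. The 9 members described here were chosen by name, as features of the expression array that carry those gene symbols. All 9 were found, among 23279 genes with a symbol, and 11 further Ms4a genes had a feature.

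The 12 single-colour arrays carry RNA of inflammatory monocytes sorted from mouse blood as CD11b+, CD115+ and Ly6C high. The TRIM33 group (6 arrays) and the WT group (6 arrays) both carry the strain label C57BL/6 LyzCre, a Cre recombinase expressed from a lysozyme gene in myeloid cells, and an age of 6 to 8 weeks. The labels do not say whether WT mice carry a floxed Trim33 allele or the recombinase, and 2 arrays of each genotype are titled as mixes, with the number of animals in a mix not stated. Nothing in the labels ties an array to 1 animal, so each p below rests on array-to-array spread that may be technical. The values are the authors' log2 expression values, and differences on that scale of 1 correspond to a doubling. Trim33, the targeted gene, read 6.06 to 6.23 on the TRIM33 arrays and 6.81 to 7.05 on the WT arrays, so each array followed its label.

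The arrays also fell into 2 sets that the labels do not name. Clustering on all features other than the Ms4a family parted the arrays 6 against 6. The split was the same as that by Xist, the RNA of the inactive X chromosome, which read 3.36 to 3.64 in one set and 9.01 to 10.2 in the other. The Y-linked gene Eif2s3y went against it, at 8.09 to 8.47 in the Xist-low and 2.19 to 2.89 in the Xist-high set. Kdm5d and Uty, also Y-linked, did the same. By these genes the Xist-low arrays read as male and the Xist-high arrays as female, though the sample labels used here give no sex. The Xist-low set holds TRIM33 replicates 1, 2 and 3 and WT replicates 4, 5 and 6, all 4 mixes among them, and the Xist-high set the remaining 3 TRIM33 and 3 WT arrays. Markers of the sorted cells were high in both sets: Ly6c2, the gene of the sorted Ly6C, read 12.3 to 12.5 in the Xist-low set and 12.2 to 12.4 in the Xist-high set, and Ccr2, a chemokine receptor of these monocytes, 11.7 to 11.9 and 11.4 to 11.6. Csf1r, which encodes CD115, read 10.9 to 11.1 and 9.73 to 10.1, and Itgam, which encodes CD11b, 10.4 to 10.7 and 9.40 to 9.88. All 18 measured cell cycle genes were higher on every Xist-high array than on any Xist-low array. So were 8 of 12 genes of granulocyte-monocyte precursors (1 lay the other way), against 7.45% of all genes. In turn 5 of 7 MHC class II genes and 8 of 12 markers of Ly6C-low monocytes were higher on every Xist-low array. Of all genes, 6.59% were. Sex-linked genes, cell cycle, precursor genes and the mixes all move with the set, so their parts in a difference between the sets cannot be told apart. Since the sets were read from the arrays themselves, differences between them are given as a description, with no test.

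The family lies together on mouse chromosome 19, where the RefSeq gene table of assembly GRCm38.p6 places 21 Ms4a genes in 1 stretch with a single further protein-coding gene, Gm8369. In their order there the genes are Ms4a10, Ms4a15, Ms4a18, Ms4a8a, Ms4a20, Ms4a19, Ms4a13, Ms4a12, Ms4a1, Ms4a5, Ms4a14, Ms4a7, Ms4a4a, Ms4a4c, Ms4a4b, Ms4a6c, Ms4a6b, Ms4a4d, Ms4a6d, Ms4a2 and Ms4a3. Ms4a12 and Ms4a6e were not analysed here. The neighbours Ms4a4c and Ms4a4b, and Ms4a6c and Ms4a6b, are close copies of each other, and probes of such copies may read each other's transcripts.

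The likeness reaches into the promoters. RefSeq promoter sequences (GRCm38.p6) matched 7 of the 9 members. Over the 250 bases before the annotated start, Ms4a4c and Ms4a4b had 185 identical bases of 231 aligned (74.0% of the window), and Ms4a6c and Ms4a6b 149 of 175 (59.6%). Over the 21 pairs of members with an entry the median was 52.4% and the lowest 50.0%. Both pairs are shown because their promoters were the most alike, and Ms4a3 is shown because it differed most between the sets. Each is written 5′ to 3′ on the strand of the gene, with matches to GAGGAA, the core letters bound by the myeloid factor PU.1, in capitals.

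Ms4a4c, chr19:11407411-11407660, plus strand: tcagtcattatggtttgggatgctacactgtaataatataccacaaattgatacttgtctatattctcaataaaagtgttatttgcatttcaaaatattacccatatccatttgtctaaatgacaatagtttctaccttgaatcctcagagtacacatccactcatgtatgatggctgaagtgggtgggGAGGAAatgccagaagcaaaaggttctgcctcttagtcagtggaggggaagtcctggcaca
Ms4a4b, chr19:11443308-11443557, plus strand: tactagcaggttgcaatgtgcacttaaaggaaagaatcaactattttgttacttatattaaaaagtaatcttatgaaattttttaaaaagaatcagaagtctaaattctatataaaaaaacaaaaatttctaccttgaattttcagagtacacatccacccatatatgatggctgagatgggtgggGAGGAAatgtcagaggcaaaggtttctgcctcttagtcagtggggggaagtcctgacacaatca
Ms4a6c, chr19:11469118-11469367, plus strand: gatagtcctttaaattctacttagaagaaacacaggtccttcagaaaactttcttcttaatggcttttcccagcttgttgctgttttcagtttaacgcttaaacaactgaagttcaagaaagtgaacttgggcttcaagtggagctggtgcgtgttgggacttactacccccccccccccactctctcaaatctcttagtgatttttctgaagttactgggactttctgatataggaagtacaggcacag
Ms4a6b, chr19:11518309-11518558, plus strand: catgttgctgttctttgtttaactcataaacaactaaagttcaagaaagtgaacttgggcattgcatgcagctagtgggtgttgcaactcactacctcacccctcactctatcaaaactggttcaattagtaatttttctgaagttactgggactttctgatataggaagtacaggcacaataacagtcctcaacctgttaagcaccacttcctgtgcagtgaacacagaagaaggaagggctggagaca
Ms4a3, chr19:11640852-11641101, minus strand: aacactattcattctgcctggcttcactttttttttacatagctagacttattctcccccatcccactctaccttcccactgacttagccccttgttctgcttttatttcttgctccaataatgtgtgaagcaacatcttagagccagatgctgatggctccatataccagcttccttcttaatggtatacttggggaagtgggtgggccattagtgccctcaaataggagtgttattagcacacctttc

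Searched on both strands, GAGGAA stood in 2 of the 7 member windows, 61 bases before the start of Ms4a4c and 64 before that of Ms4a4b, against 23.3% of all 32851 promoters. The letters TTGCNNAA, a form bound by C/EBP factors, stood in 0 of the 7 and in 9.56% of all promoters, and GAAANNGAAA, a form bound by interferon regulatory factors, in 0 of the 7 and in 2.98%. No motif match overlapped another. A match is a run of letters and not evidence of binding.

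Ms4a3, the member of precursor cells, separated the array sets completely. In the Xist-low set it read 3.35, 3.38 and 3.96 on TRIM33 replicates 1, 2 and 3 and 3.44, 2.98 and 3.07 on WT replicates 4, 5 and 6. In the Xist-high set it read 8.27, 8.29 and 7.81 on TRIM33 replicates 4, 5 and 6 and 8.13, 8.26 and 7.94 on WT replicates 1, 2 and 3. Every Xist-high array was above every Xist-low array, with 3.85 between the nearest arrays on the log2 scale, and the genotypes overlapped within each set. The set means were 8.11 ± 0.201 and 3.36 ± 0.344 (SD, n = 6 each), a difference of 4.75, or 27.0-fold. Of all genes, 7.45% were likewise higher on every Xist-high array than on any Xist-low array, so Ms4a3 shares this with 1735 genes in all.

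**Figure D1:**
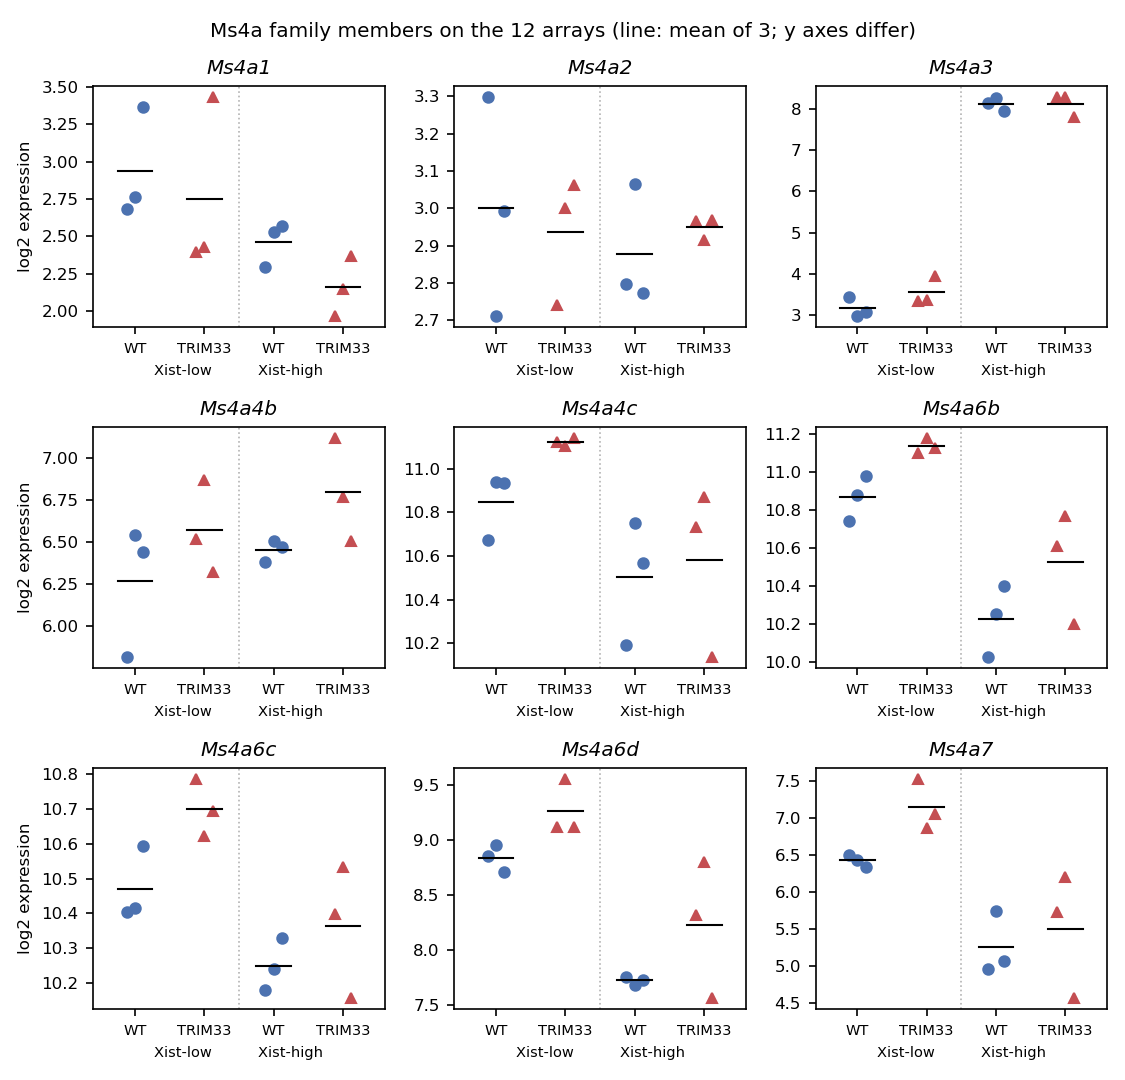
Log2 expression (y axis, a different range in each panel) of the 9 members on the 12 arrays, by array set and genotype (x axis). Blue circles are WT arrays, red triangles TRIM33 arrays and lines the means of 3 arrays. Ms4a3 lies near 3 in the Xist-low and near 8 in the Xist-high set, while Ms4a7 and Ms4a6d are lower in the Xist-high set.

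Most precursor genes fixed as a list went the same way as Ms4a3. Mpo, which encodes myeloperoxidase of the first granules, read 4.74 to 5.15 in the Xist-low and 10.9 to 11.5 in the Xist-high set. Elane, which encodes neutrophil elastase, read 3.81 to 5.56 and 10.3 to 10.8. Against this direction, Flt3 of the same list was lower on every Xist-high array (set difference -1.48). Cebpa (-0.63) and Gfi1 (-0.13) also had lower means in the Xist-high set, with overlap. Over the 12 precursor genes the median set difference was 2.10, and over the 18 cell cycle genes 4.22, with Top2a at 3.01 to 4.78 and 9.99 to 10.1 and Cdk1 at 3.04 to 4.12 and 9.60 to 9.98. The median over all genes was 0.0015. Among 12 neutrophil markers 5 were higher on every Xist-high array and 1 was lower, with a median of 0.65. Of all genes, 7.45% were higher and 6.59% lower in this way. The antimicrobial peptide gene Camp, of late granules, read 2.80 to 3.53 and 5.85 to 7.57, and S100a8 6.88 to 10.3 and 10.5 to 11.3. None of these 3 lists had a gene that passed the genotype test with the array set as a block. The genes of smallest p in them were Elane (TRIM33 minus WT 0.42, SE 0.203), Ctsg (0.39, SE 0.191), S100a9 (0.80, SE 0.361), Retnlg (0.44, SE 0.215), Cdc20 (0.15, SE 0.0982) and Ccna2 (0.35, SE 0.275).

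Ms4a7, the macrophage member, went against Ms4a3. In the Xist-low set it read 7.52, 6.86 and 7.05 on the TRIM33 arrays and 6.50, 6.43 and 6.34 on the WT arrays. In the Xist-high set it read 5.73, 6.20 and 4.57 on the TRIM33 arrays and 4.96, 5.74 and 5.07 on the WT arrays. Every Xist-low array read above every Xist-high array, but the nearest were only 0.14 apart. The means were 6.78 ± 0.453 and 5.38 ± 0.611 (SD, n = 6 each), 2.65-fold higher in the Xist-low set. Of all genes, 6.59% parted the sets in this direction.

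The remaining monocyte members were also lower on average in the Xist-high set, by less and with overlap. Ms4a6d read 9.12, 9.55 and 9.12 on the TRIM33 and 8.86, 8.95 and 8.71 on the WT arrays of the Xist-low set. In the Xist-high set it read 8.32, 8.80 and 7.57 on the TRIM33 and 7.76, 7.69 and 7.73 on the WT arrays. A single array, TRIM33 replicate 5 at 8.80, reached into the Xist-low range, and the set means differed by -1.07 (2.10-fold). Ms4a6b differed by -0.62, from 11.0 ± 0.167 in the Xist-low to 10.4 ± 0.275 in the Xist-high set (SD, n = 6 each). Ms4a4c differed by -0.44, from 11.0 ± 0.179 to 10.5 ± 0.309, and Ms4a6c by -0.28, from 10.6 ± 0.152 to 10.3 ± 0.144. These 3 stayed above 10 on the log2 scale on every array of both sets.

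The T cell member Ms4a4b was the exception among its neighbours. It read 5.82 to 6.87 in the Xist-low and 6.38 to 7.12 in the Xist-high set, a mean difference of 0.21 that is smaller than the SD within either set (0.347 and 0.273). In the arrays not titled as mixes it was 0.46, and without WT replicate 4 it was 0.086. The pair with the most alike promoters thus had set differences of -0.44 (Ms4a4c) and 0.21 (Ms4a4b), and the Ms4a6c and Ms4a6b pair -0.28 and -0.62.

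Of the 9 members, 1 was higher on every Xist-high array, 1 was higher on every Xist-low array and 7 overlapped. Of all genes, 7.45% and 6.59% parted the sets in these directions. The median set difference was -0.44. Within each genotype alone, Ms4a3 was higher on every Xist-high array, and Ms4a1, Ms4a6b, Ms4a6c, Ms4a6d and Ms4a7 were higher on every Xist-low array of both genotypes, 5 of 9 members against 7.85% of all genes. For Ms4a1 the nearest TRIM33 arrays of the sets read 2.39 and 2.37. Leaving out TRIM33 replicate 5 raised the number of members that parted the sets from 2 to 5, and leaving out WT replicate 4 raised it to 4. Leaving out an array can keep or raise such a count but not lower it. TRIM33 replicate 5 was the highest Xist-high array for Ms4a6b, Ms4a6c and Ms4a6d, so the rise is no support. The share of all genes without these arrays is not given here.

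Among the other Ms4a and CD20-like genes, 4 of 13 were lower on every Xist-high array than on any Xist-low array, and 9 overlapped. Of all genes, 6.59% were lower in this way. Ms4a4a, known from alternatively activated macrophages and the neighbour of Ms4a7, read 9.05 to 9.49 in the Xist-low and 6.56 to 8.13 in the Xist-high set, a difference of -1.90. Ms4a8a, also described in macrophages, read 9.41 to 10.0 and 8.49 to 9.002, a difference of -0.83. The related CD20-like genes Tmem176a and Tmem176b, of myeloid and dendritic cells, differed by -1.28 and -1.50. The 9 others, Ms4a4d, Ms4a5, Ms4a10, Ms4a13, Ms4a14, Ms4a15, Ms4a18, Ms4a19 and Ms4a20, read 1.91 to 4.27 on all arrays. Their set differences were small, the largest in size being -0.29 for Ms4a15 and -0.19 for Ms4a4d. Along the chromosome, the genes with set differences beyond 1 in size were Ms4a7 and Ms4a4a, which are neighbours, Ms4a6d, and Ms4a3 at the end of the stretch.

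**Figure D2:**
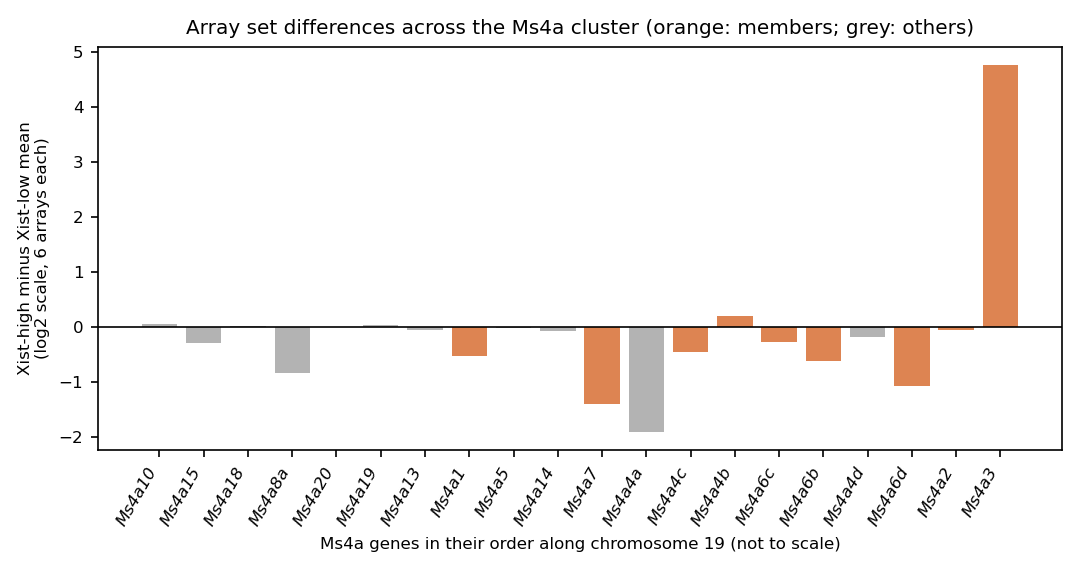
Difference of the mean log2 expression between the Xist-high and the Xist-low set (y axis, 6 arrays each) for the 20 Ms4a genes with a feature, in chromosome order (x axis, not to scale). Orange bars are the 9 members and grey bars other Ms4a genes. Ms4a3 stands at 4.75, and Ms4a4a and Ms4a7 at -1.90 and -1.40.

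Lists of later monocyte stages went mostly the way of Ms4a7. Of all genes, 6.59% were higher on every Xist-low array. Of 12 Ly6C-low monocyte markers 8 were higher on every Xist-low array (median difference -1.21), among them Ace, which encodes an angiotensin-converting enzyme, at 8.25 to 9.58 against 4.72 to 5.61, and Treml4 at 8.68 to 9.85 against 5.75 to 6.75. Of 13 macrophage maturation genes 7 were (median -0.49), with the transcription factor gene Maf at 7.88 to 8.75 against 5.58 to 6.90 and the lipid carrier gene Apoe at 11.1 to 11.6 against 9.39 to 10.2. Of 7 MHC class II genes 5 were (median -2.76), with H2-Aa at 8.66 to 10.6 against 6.30 to 7.17 and H2-Ab1 at 9.54 to 10.95 against 6.76 to 8.47. Of 11 Ly6C-high markers, the type sorted here and not a later stage, 3 were (median -0.22), Csf1r among them. Vcan, which encodes a matrix proteoglycan, overlapped at 7.97 to 10.3 against 6.84 to 8.20. In the other direction, Spn of the Ly6C-low list had a mean higher by 0.47 in the Xist-high set. Mertk, Vsig4, Cd163, Gpnmb and C1qa of the macrophage list were also higher there on average, by 0.24 or less. All of these overlapped. By genotype the genes of smallest p in these lists, none past the test with the block, were Cd300e (TRIM33 minus WT -0.29, SE 0.143), Cx3cr1 (-0.29, SE 0.162), Mertk (0.32, SE 0.145), Gpnmb (0.29, SE 0.155), H2-Eb1 (-0.48, SE 0.247), H2-Aa (-0.43, SE 0.268), Plac8 (0.16, SE 0.0797) and Csf1r (-0.15, SE 0.0788).

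Ms4a1, which encodes CD20, was dim throughout. It read 2.39 to 3.43 in the Xist-low and 1.97 to 2.57 in the Xist-high set, on arrays whose medians lay between 4.16 and 4.25. The set difference was -0.53, and -0.23 in the arrays not titled as mixes. The highest were TRIM33 replicate 3 at 3.43 and WT replicate 6 at 3.36, which are the mixes numbered 2 of the genotypes. The mean of 11 measured B cell markers was also highest on these arrays, at 4.79 and 4.69, against 4.39 to 4.46 on the other Xist-low arrays and 4.04 to 4.23 on the Xist-high arrays. Of the 11 markers 2 were higher on every Xist-low array, 0 on every Xist-high array and 9 overlapped (median set difference -0.25). The shares of all genes were 6.59% and 7.45%. The 2 were Cd79a, a signalling chain of the B cell receptor, at 3.67 to 5.42 against 2.88 to 3.13, and Spib, at 4.18 to 4.77 against 2.42 to 3.83. Among those that overlapped, Cd79b, the partner chain of Cd79a, read 7.38 to 8.22 against 7.56 to 8.26, and Pax5, a B cell transcription factor gene, 4.50 to 4.92 against 4.34 to 4.98. The part of B cell RNA in the level of Ms4a1 was not tested, and in sorted bulk cells fewer cells of a type and less RNA per cell cannot be told apart. By genotype Spib differed by -0.37 (SE 0.180) and Blnk by -0.16 (SE 0.101) with the block.

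Ms4a2, the beta chain of the IgE receptor, was dim and flat. It read 2.71 to 3.30 in the Xist-low and 2.77 to 3.06 in the Xist-high set, and the means differed by -0.05. Basophil and mast cell markers were low too. Of 10, only the basophil protease gene Mcpt8 parted the sets, at 3.32 to 3.69 against 4.61 to 5.23 in the Xist-high set. Of all genes, 7.45% were likewise higher on every Xist-high array, so the order of Mcpt8 is no result about these cells. Prss34 overlapped at 3.97 to 4.33 against 4.25 to 4.87. Cpa3, the carboxypeptidase of mast cells, read 1.99 to 2.50 on all arrays. Of 7 further genes of the IgE receptor and its signalling, 3 were higher on every Xist-low array, against 6.59% of all genes. They were Syk, the kinase that docks at the receptor chains (8.59 to 9.07 against 7.55 to 8.28), Fcer1g, the gamma chain gene (12.1 to 12.2 against 11.8 to 11.9), and Plcg2. The adaptor gene Lat overlapped, at 4.81 to 5.51 against 4.39 to 4.86. By genotype with the block Plcg2 differed by -0.20 (SE 0.0784), Btk by 0.12 (SE 0.0880), Cpa3 by -0.08 (SE 0.0940) and Hdc by 0.09 (SE 0.138), none past the test.

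Markers of T cells and natural killer cells, given beside Ms4a4b, mostly overlapped between the sets. Of 11 T cell markers 3 were higher on every Xist-low array and 0 on every Xist-high array, against 6.59% and 7.45% of all genes. Among the 3, Cd3g, a chain of the T cell receptor complex, read 3.35 to 4.22 against 2.65 to 2.89. Cd28, a costimulatory receptor gene, overlapped with the higher mean in the Xist-high set, at 4.38 to 5.65 against 5.61 to 6.47. Of 8 natural killer markers 1 was higher on every Xist-low array, Gzma, which encodes a killing protease, at 3.87 to 5.11 against 2.59 to 3.44. With 6.59% of all genes in that order, a count of 1 is no result about these cells. Klrk1, an activating receptor gene, read 5.17 to 6.86 against 5.43 to 6.20. The part of such cells in the level of Ms4a4b was not tested. By genotype with the block Klre1 differed by -0.50 (SE 0.164; limma, Benjamini-Hochberg adjusted p = 0.727), Gzma by -0.38 (SE 0.179), Cd3g by -0.17 (SE 0.140) and Cd4 by 0.20 (SE 0.163).

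The comparison of genotypes asks whether targeting Trim33 changes the members in these monocytes. No member passed limma with Benjamini-Hochberg adjustment over all genes at 0.05, where 0.0215% of genes did, and 0 members had an unadjusted p under 0.05, against 3.07% of genes. On average 8 of the 9 members were above 0 (TRIM33 minus WT), with a median of 0.21 against -0.01 over all genes. Ms4a7 differed by 0.48 (SE 0.461) and Ms4a6d by 0.46 (SE 0.341), each less than the SD between the arrays of either genotype. Ms4a4b differed by 0.32 (SE 0.153; limma, unadjusted p = 0.0548). That is more than its SD of 0.290 in the TRIM33 and 0.272 in the WT arrays, but it did not pass. Ms4a3 differed by 0.21 (SE 1.33), an error that holds the distance between the sets.

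With the array set as a block the differences are the same and most errors smaller. Again 0 of 9 members passed, where 0.0387% of genes did, and 3 had an unadjusted p under 0.05, against 5.28% of genes. Ms4a6d differed by 0.46 (SE 0.161; limma, Benjamini-Hochberg adjusted p = 0.792), Ms4a6b by 0.28 (SE 0.103; adjusted p = 0.841) and Ms4a4b by 0.32 (SE 0.140; adjusted p = 0.936). Ms4a7 stood at 0.48 (SE 0.235), Ms4a3 at 0.21 (SE 0.140), Ms4a4c at 0.18 (SE 0.130) and Ms4a6c at 0.17 (SE 0.0855). Ms4a1 was the member below 0, at -0.24 (SE 0.173), and Ms4a2 lay at 0.0035 (SE 0.106). The differences therefore ran from 1.18-fold lower for Ms4a1 to 1.40-fold higher for Ms4a7.

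TRIM33 replicate 6 read below the other TRIM33 arrays of its set for Ms4a3 and for all 6 members from Ms4a4b to Ms4a7. Without it, the blocked fit gave 7 of 9 members a p under 0.05 before adjustment, against 6.01% of genes, and 0 passed the adjustment. The array was singled out for its low values of these members, so this count is no support, and leaving out any other array gave 2 to 4 members. Ms4a6d then differed by 0.61, and the median of the members was 0.30.

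Within the Xist-low set, the 3 TRIM33 arrays all read higher than any of the 3 WT arrays for 5 members, Ms4a4c, Ms4a6b, Ms4a6c, Ms4a6d and Ms4a7, an order found in 4.61% of genes. The margin was narrow for Ms4a6c, with the lowest TRIM33 array at 10.62 and the highest WT array at 10.59. By limma 0 of 9 members passed there, where 0.0344% of genes did, and 4 had an unadjusted p under 0.05, against 4.57% of genes. Ms4a7 differed by 0.72 (SE 0.175; adjusted p = 0.957 by limma), Ms4a6d by 0.42 (SE 0.152), Ms4a4c by 0.28 (SE 0.120) and Ms4a6b by 0.27 (SE 0.114). With 1 array of this set left out in turn, 1 to 3 members had an unadjusted p under 0.05 by limma, against 966 to 1203 of 23279 genes. The count was 1 without TRIM33 replicate 2, and 3 without TRIM33 replicate 3 or without WT replicate 4. TRIM33 replicate 2 stood apart in the Xist-low set by its list means. It read 5.64 for cell cycle genes (4.72 to 5.03 on the other 5 arrays) and 6.73 for neutrophil markers (5.50 to 5.90). Its mean was 8.76 for MHC class II genes (9.56 to 9.85) and 7.10 for Ly6C-low markers (7.66 to 8.12). The mean of the natural killer markers was also ordered by genotype here, at 3.95 to 4.15 on the TRIM33 and 4.23 to 4.30 on the WT arrays. Besides the members, no other list mean had such an order, and with many lists looked at it is no support. With the block, 0 of its 8 genes were above 0 (TRIM33 minus WT) over all 12 arrays. The median over all genes was -0.01, and the share of all genes above 0 was not counted. The part of these list differences in the order of the members was not tested.

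Within the Xist-high set 0 members had such an order, against 4.41% of genes. By limma 0 passed, where 0.0129% of genes did, and 0 had an unadjusted p under 0.05, against 4.99% of genes. Ms4a6d differed by 0.50 (SE 0.258), Ms4a4b by 0.34 (SE 0.164), Ms4a7 by 0.24 (SE 0.366) and Ms4a4c by 0.08 (SE 0.213). The 3 WT arrays were close for Ms4a6d, at 7.69 to 7.76, while the TRIM33 arrays spread from 7.57 to 8.80. With 1 array left out within a set, Ms4a6d ran from 0.22 to 0.84, the highest without TRIM33 replicate 6, and Ms4a4b from 0.078 to 0.49.

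**Figure D3:**
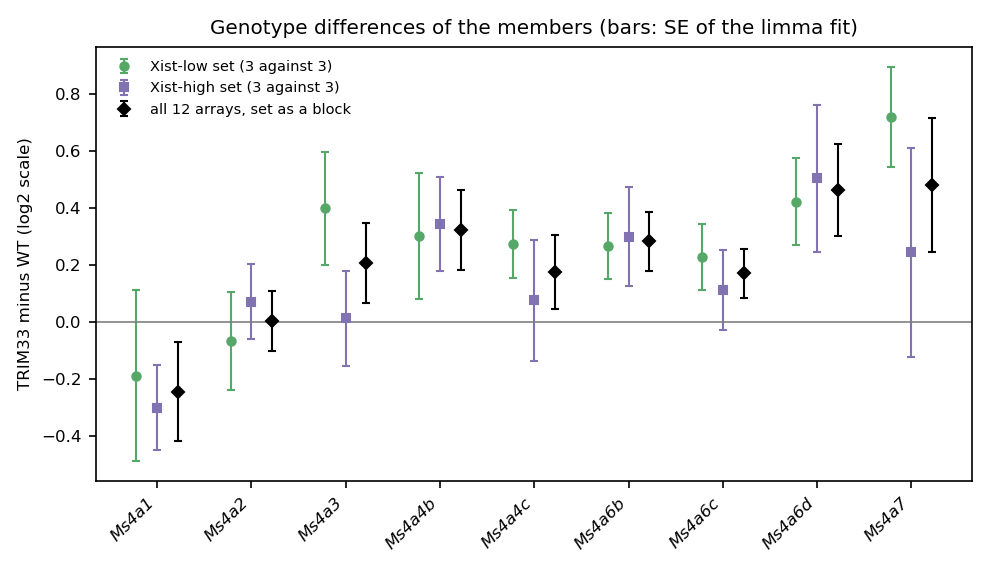
TRIM33 minus WT (y axis, log2 scale) for each member (x axis) from limma in the Xist-low set (green circles), in the Xist-high set (purple squares) and over all 12 arrays with the set as a block (black diamonds), with bars of 1 SE. Ms4a7 stands at 0.72 in the Xist-low and 0.24 in the Xist-high set, and Ms4a6d at 0.42 and 0.50.

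Whether the genotype difference differed between the sets was tested as an interaction. No member passed (limma, Benjamini-Hochberg adjusted p = 0.996 or above, and 0 at an unadjusted p under 0.05), where 0.0043% of genes did. The interaction of Ms4a7 was -0.48 (SE 0.471) and that of Ms4a3 -0.39 (SE 0.272), the Xist-high minus the Xist-low difference. Among the other Ms4a genes, Ms4a8a had the smallest p. In the Xist-low set it read 9.41, 9.41 and 9.42 on the TRIM33 arrays, below 10.0, 9.74 and 9.66 on the WT arrays, a difference of -0.40 (SE 0.130; adjusted p = 0.997 by limma within the set). In the Xist-high set it read 8.77, 8.89 and 8.98 on the TRIM33 arrays and 8.59, 9.002 and 8.49 on the WT arrays, with overlap. Its interaction was 0.59 (SE 0.208; unadjusted p = 0.0143 and adjusted p = 0.996 by limma over all genes), so it did not pass.

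Members of the monocyte group varied together from array to array within a set. Over the 10 pairs of Ms4a4c, Ms4a6b, Ms4a6c, Ms4a6d and Ms4a7, Pearson's r was 0.686 to 0.960 over the 6 Xist-high arrays (median 0.826) and 0.402 to 0.948 over the 6 Xist-low arrays (median 0.703). The points of each r share their arrays, their amplification and, in the Xist-low set, an order by genotype, and with 6 points r is a description. The copies Ms4a6c and Ms4a6b had r of 0.960 and 0.848. Such likeness was not particular to the group. Ms4a4b had r of 0.762 (Xist-high) and 0.752 (Xist-low) to Ms4a6b, and Ms4a3 had 0.892 and 0.513 to Ms4a7. Other such pairs were less alike, as Ms4a4b and Ms4a7 at 0.592 and 0.247. The share of all gene pairs this much alike was not counted. Ms4a8a ran against the group in the Xist-low set, with r of -0.989 to Ms4a4c and -0.979 to Ms4a6b, but not in the Xist-high set, at 0.193 and 0.140.

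**Figure D4:**
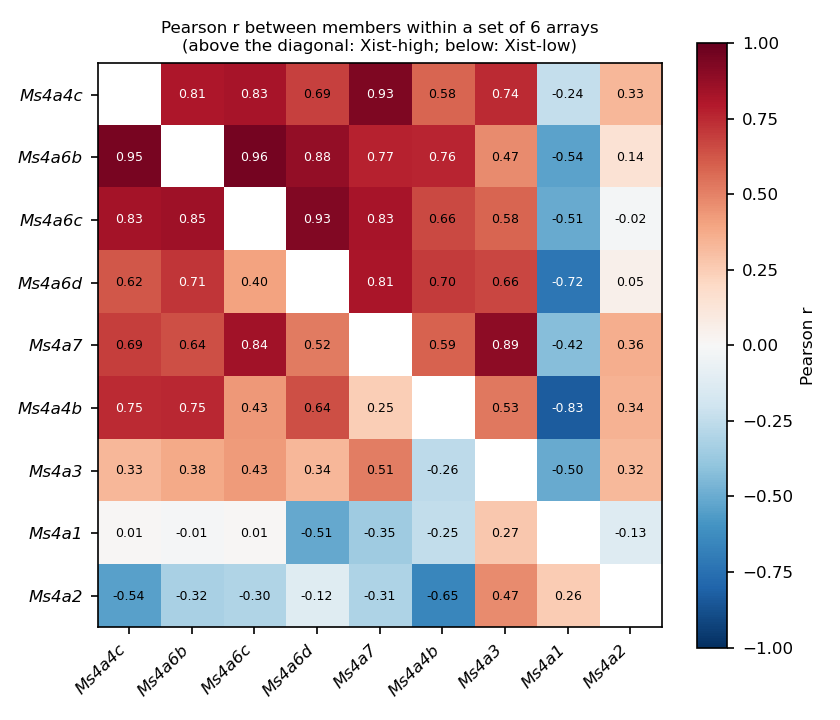
Pearson's r between the log2 values of each pair of members (rows and columns) over the 6 Xist-high arrays (above the diagonal) and the 6 Xist-low arrays (below it), red for positive and blue for negative. The block of Ms4a4c, Ms4a6b, Ms4a6c, Ms4a6d and Ms4a7 is positive in both sets, from 0.402 to 0.960.

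For the 7 members that ranged over more than 1 on the log2 scale, the most alike genes were taken as the 3 with the highest r in whichever set gave the lower one. For Ms4a4c these were Milr1, which encodes an inhibitory receptor first described on mast cells (r at least 0.950 in each set), Mettl23 (0.932) and Plgrkt, which encodes a plasminogen receptor (0.926). For Ms4a6b they were Ccdc107, Rbx1 and Gm6682, for Ms4a6d Anks3, Atg4a and Malsu1, and for Ms4a7 Tctex1d2, Hprt and Melk. For Ms4a3 they were Cldn34b1, Map3k10 and Mpv17, for Ms4a4b Ccdc90b, Asb3 and Anxa7, and for Ms4a1 Myh9, Ankib1 and Orm2. The lower r of these pairs was between 0.826 and 0.950. Ranked by Spearman's rho in place of Pearson's r, 1 of the 21 pairs was found again, so the order of likeness over 6 arrays depends on the measure.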

How the data were processed

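Total RNA (RNeasy Mini kit; 900 pg amplified with NuGEN Ovation Pico V2, per the labels' protocols) was hybridised to 12 arrays. The labels' treatment text is about CD4 T cells; monocytes are named in the source names and design text, which were followed. The authors deposited log2 expression values made with RMA and Partek, per the submitters' processing notes, with versions and chip definition not given in the sources used here. RMA equalises the arrays' distributions, which can hide shared shifts and compresses differences of dim genes. Arrays have no counting depth, so their number limits the precision.

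Of 24479 features, 23281 had 1 gene symbol, 0 several and 1198 none. Names were checked against RefSeq (GRCm38.p6), which changed 0. For 2 symbols with several features the brighter was kept (23279 genes remained). Of 165 listed genes 156 were measured, and the others were not analysed here.

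Genotypes were compared with lmFit and eBayes of limma 3.58.1 (R 4.3.3), with Benjamini-Hochberg adjustment over all genes and a threshold of 0.05. Replicate numbers follow the order of deposition and pair nothing, except that mixes carry a number in their titles. Array sets came from hierarchical clustering (average linkage) on 1 minus Pearson's r. The gene test was tested on simulated data. The members and lists were chosen with earlier results of these data known. Named genes were all members, the other Ms4a and CD20-like genes, the 3 genes most like each member with a range over 1, the 2 genes of each list with the largest set difference and the 2 with the smallest p with the set as a block, and Trim33. Ly6c2, Ccr2, Itgam, Fcer1g, Cd79b, Pax5 and Klrk1 were named after their values were seen. So were Spn, Vsig4, Cd163, C1qa, Flt3, Cebpa, Gfi1, Kdm5d and Uty. Ms4a19 and Ms4a20 were added by their names after the list was fixed. Python 3.11.15 and matplotlib 3.10.9 were used.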

Additional observations from a re-analysis of the deposited data

Results flagged for a closer look

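In each group of 6 arrays, by genotype or by set, the highest and lowest array was compared with its nearest neighbour by Dixon's criterion. Of 92 groups tested over the Ms4a and CD20-like genes and Trim33, 5 had an array that stood apart, where chance gives a share of 0.05. The count is near that share, so the arrays are listed as a description. Groups by genotype mix the array sets, and each array is in a group of both kinds, so the share is only a guide. Ms4a1 on TRIM33 replicate 3 read 3.43, against 1.97 to 2.43 on the other TRIM33 arrays. Ms4a4b on WT replicate 4 read 5.82, against 6.38 to 6.54 on the other WT arrays. Ms4a5, a dim member of the family, read 3.07 on TRIM33 replicate 6, against 2.27 to 2.56 on the other Xist-high arrays. Tmem176a read 8.17 on TRIM33 replicate 2, against 8.51 to 8.71 on the other Xist-low arrays, and 7.61 on TRIM33 replicate 5, against 7.06 to 7.27 on the other Xist-high arrays.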

How the results depend on the processing

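No member passed limma under any alternative run; the lowest adjusted p of a member was 0.280, for Ms4a6d. Over all genes, 5 passed without a block and 3 without variance moderation. With the array set as a block 9 passed, as with quantile normalization and the block and in the arrays not titled as mixes with the block, and 13 with the dimmer genes left out. The Xist-low set alone gave 8, the Xist-high set alone 3, and the mixes with their number as a replicate block 10. In the fit of the mixes 0 members were called and 3 had an unadjusted p under 0.05 by limma, against 1412 of 23279 genes. It rests on 2 mixes of each genotype, which leaves little to measure the spread by. Leaving out 1 array gave 5 to 15 genes over both sets (3 to 8 within a set), 0 to 2 for the interaction, and 2 to 5 members that parted the sets. Of 21 most alike pairs 1 was kept under Spearman's rho.

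Signs turned for small differences: Ms4a2 was -0.085 in the arrays not titled as mixes with the block and -0.065 in the Xist-low set, and Ms4a3 was -0.012 in the former. The next ranges, with 1 array left out, pool the fits without the block, with it and within a set. Genotype differences ran from -0.53 to 0.026 for Ms4a1, -0.21 to 0.17 for Ms4a2, -0.33 to 0.73 for Ms4a3, -0.081 to 0.32 for Ms4a4c and -0.11 to 0.86 for Ms4a7. The members that kept their sign ran from 0.078 to 0.49 for Ms4a4b, 0.18 to 0.46 for Ms4a6b, 0.027 to 0.29 for Ms4a6c and 0.22 to 0.84 for Ms4a6d. The range of Ms4a3 came from the fit without the block. With the block alone, Ms4a1 ran from -0.40 to -0.15, Ms4a2 from -0.053 to 0.077 and Ms4a3 from 0.097 to 0.30. Ms4a4c then ran from 0.12 to 0.29 and Ms4a7 from 0.35 to 0.72. Interactions ran from -0.33 to 0.23 for Ms4a1, -0.012 to 0.28 for Ms4a2, -0.12 to 0.27 for Ms4a4b, -0.36 to 0.023 for Ms4a4c, -0.089 to 0.20 for Ms4a6b and -0.20 to 0.41 for Ms4a6d. The causes were not tested. In the arrays not titled as mixes the set difference of Ms4a1 was -0.23 (-0.53 over all arrays) and that of Ms4a4b 0.46 (0.21); without WT replicate 4 that of Ms4a4b was 0.086. The fits with the block and quantile normalization, with the block and the filter on dim genes, and with 1 array left out within a set were chosen after seeing the data. Ms4a1 and Ms4a2 lie near the bottom of the range of values, where small differences are compressed.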
